A study of Caenorhabditis elegans with 51 samples.

Results

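A set of 10 genes of the cadherin complex and the apical junction of the nematode *Caenorhabditis elegans* was followed across groups of cells from single embryos of the 100-cell stage. The genes were found by name among the 31383 genes of each deposited table, and all 10 members were present in every table. They are *hmr-1*/cadherin, *hmp-1*/α-catenin, *hmp-2*/β-catenin, *jac-1*/p120-catenin, *sax-7*/L1CAM, *afd-1*/afadin, *ajm-1*, *dlg-1*/Discs large, *let-413*/Scribble and the claudin-like *vab-9*.

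In epithelia and early embryos, classical cadherins bind between neighboring cells, and their tails are tied to actin through β-catenin and α-catenin, with p120-catenin on the membrane-proximal part of the tail. In *C. elegans* epithelia a second complex, built on DLG-1 and the coiled-coil protein AJM-1, sits basal to the cadherin complex in the same apical belt, and LET-413 is needed to gather both into that belt. Afadin and claudin-like proteins are further junctional links, and SAX-7 is an immunoglobulin-family adhesion molecule that acts partly in parallel with cadherin.

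Embryos of 3 marker strains were taken apart by aspiration under a microscope, and every library of a series carries its strain's transgene, including the control cells. In the MS series (pCEH-51::mNG) the marked MS descendants (MS+) were separated from the rest of the embryo (MS-), and in the D series (pFKH-2::mNG) the marked D descendants (D+) were separated from the rest (D-). In the C series (pR02D3.1::mKate2;pHLH-1::mNG) the internalizing Cxp descendants (C-in), their Cxa sisters, which stay outside (C-out), and the remaining cells (C-) were collected from 1 embryo. Before dissection the embryos were treated with sodium hypochlorite and with chitinase and chymotrypsin. No other allele or agent is named in the sources used here. The markers are promoter reporters, so the marked groups were picked by fluorescence and not by the marker gene's own RNA. The accepted data are 43 libraries of 19 embryos, with 7 libraries in each of the MS and D groups (n = 7) and 5 in each of the C groups (n = 5), and libraries with the same number in a series came from the same embryo.

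Counts are of sequenced reads, not molecules. The total count on genes ranged from 416394 (C-out replicate 5) to 3054633, so that 3 counts, the most that a count of 0 allows, correspond to between 7.20 and 0.982 CPM, and this limit covers counting error only. Levels are given as RPKM, reads scaled by gene length and library total, as deposited, and the study treats a gene above 25 RPKM as detected. MS+ libraries held 1496 to 3714 genes above 25 RPKM and MS- 3333 to 5387, D+ 1766 to 3446 and D- 2272 to 5131. C-in libraries held 1842 to 2490 such genes, C-out 1550 to 5330 and C- 3946 to 5491. Counts of embryos in which a group was the lower are given below without the share of all genes that did the same. In these pools of cells, fewer expressing cells and less RNA per cell cannot be told apart. The muscle genes *hlh-1*, *unc-120*, *hnd-1* and *fkh-2* summed to between 1259 and 5163 RPKM in C-in and to between 11.7 and 443 RPKM in C-out. To this sum *fkh-2* gave 420 RPKM in C-in replicate 1 but 0.50, 1.31, 4.74 and 2.47 RPKM in C-in replicates 2, 4, 5 and 6. The same sum lay between 2321 and 8005 RPKM in 6 D+ libraries, but it was 66.6 RPKM in the library labelled D+ replicate 8, against its label. That library held 1434 RPKM over the epidermal genes *elt-1*, *nhr-171*, *lin-26*, *elt-3* and *nhr-25*, where the other D+ libraries held between 3.93 and 262 RPKM. Its *fkh-2*, the gene of the marker promoter, stood at 2.35 RPKM. Tests in the D series are therefore given with and without embryo 8. Of the MS markers, *ceh-51* was above 25 RPKM in 6 of 7 MS+ libraries (8.44 RPKM in replicate 2) and *pha-4* in 5 of 7, while *tbx-2* was above it in 1 of 7 MS+ but 4 of 7 MS- libraries and *tbx-35* was near or at 0 throughout. MS- was not free of the first 2 markers. In MS- replicates 3, 4, 5, 6 and 7 *ceh-51* stood at 28.9, 67.9, 95.6, 352 and 133 RPKM. In the same libraries *pha-4* stood at 74.8, 111, 96.5, 49.1 and 106 RPKM. MS+ replicates 3 and 4 held 2707 and 2964 RPKM over the gut genes *elt-2*, *elt-7*, *end-1* and *end-3*, above every MS- library (at most 1780 RPKM), and MS+ replicate 7 had a muscle sum of 26.5 RPKM where the others had 715 to 1924 RPKM.

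The 3 members of the core complex were present in most libraries but varied widely between them. Over the 43 libraries, *hmp-1* was above 25 RPKM in 37, *hmr-1* in 31 and *hmp-2* in 24. Among these 3 genes, *hmp-1* took the largest share of their summed RPKM in 31 libraries, *hmp-2* in 7 and *hmr-1* in 5. The shares were steadiest in C-, where *hmp-1* made up 38.6% to 51.8% (median 48.0%), *hmp-2* 20.1% to 35.4% and *hmr-1* 15.9% to 33.5%. In D+ the share of *hmp-1* ran from 1.38% to 91.2% and that of *hmp-2* from 1.06% to 72.1%, so that libraries of 1 group differed more than the group medians did.

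**Figure D1:**
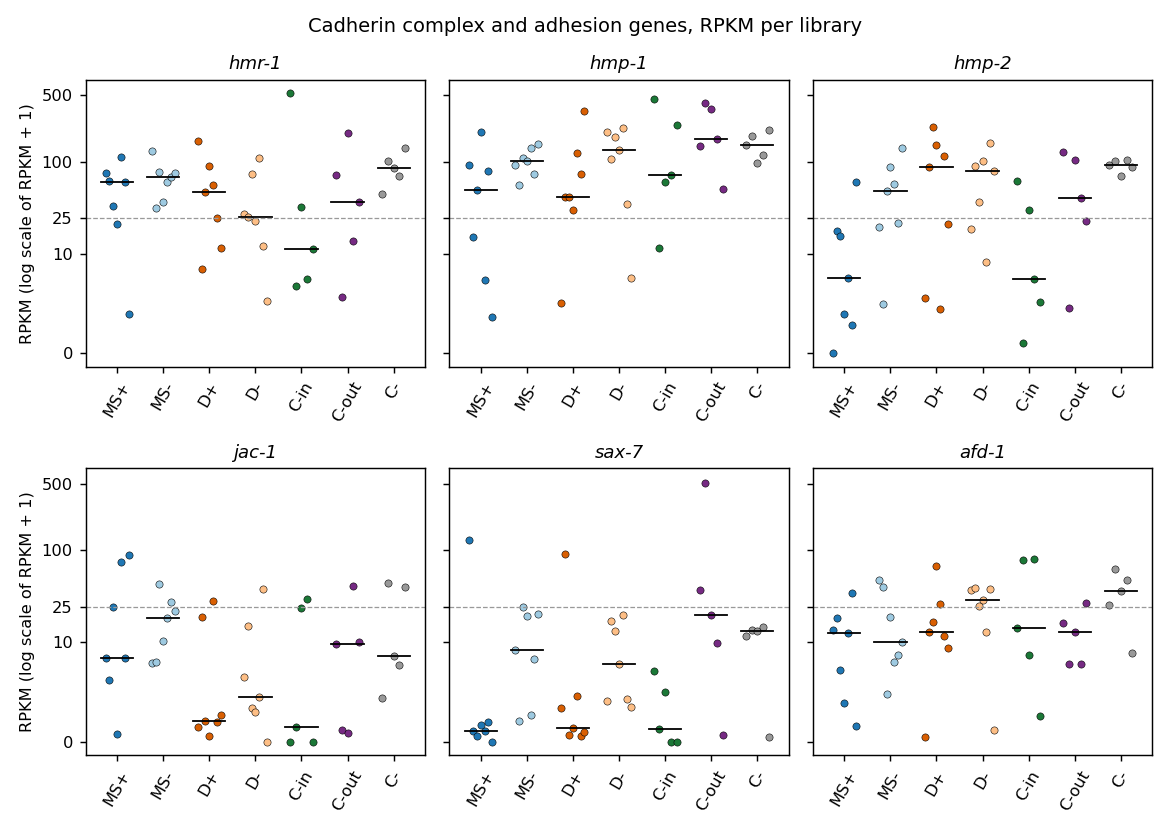
RPKM of 6 genes of the cadherin complex and of adhesion, on an axis that is logarithmic in RPKM + 1. Each point is 1 library (n = 7 in the MS and D groups, n = 5 in the C groups), the black bar is the group median and the dashed line marks 25 RPKM. Points of 1 group spread over most of the axis for *hmr-1* and *hmp-2*, and *sax-7* exceeds 25 RPKM in 4 libraries.

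*hmr-1* encodes the only classical cadherin of this animal. In C-in it stood at 527, 4.10, 32.5, 5.03 and 11.4 RPKM in embryos 1, 2, 4, 5 and 6, in C-out at 72.3, 2.91, 200.5, 13.9 and 37.4 RPKM, and in C- at 45.7, 100.7, 84.5, 70.8 and 138 RPKM. A single C-in library held most of the group's signal, and the C- libraries lay closest together. In MS+ the lowest, median and highest values were 1.56, 61.0 and 111 RPKM, against 32.1, 68.1 and 128 RPKM in MS-. In D+ they were 6.56, 47.5 and 166 RPKM, against 2.56, 25.8 and 109 RPKM in D-. The groups overlapped in every comparison. By edgeR's quasi-likelihood test, the log2 fold change was -0.03 (SE 0.73, adjusted p = 0.995) between MS+ and MS-, 1.25 (SE 0.98, adjusted p = 0.821) between D+ and D-, and 0.78 (SE 1.18, adjusted p = 0.719) between C-in and C-out. Without C embryo 1 the last value turned to -2.47, and without embryo 4 it was 2.53. Without D embryo 8 the edgeR value between D+ and D- was 0.98 (SE 0.93, adjusted p = 0.799). DESeq2 called *hmr-1* higher in D+ (log2 fold change 2.44, SE 0.86, adjusted p = 0.0271) on a scale on which the median gene also stood 1.42 higher in D+. Without embryo 8 DESeq2 gave 2.60 (SE 0.91, adjusted p = 0.0217), with the median gene at 1.55.

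*hmp-1* encodes the actin-binding α-catenin and had the highest mean of the 10 genes, 127 RPKM over the 43 libraries. In C-out it stood at 147, 414, 358, 171.5 and 51.2 RPKM in embryos 1, 2, 4, 5 and 6, in C-in at 449, 11.6, 60.2, 71.4 and 244 RPKM, and in C- at 149, 187, 97.1, 118 and 214 RPKM. All 10 of the C-out and C- libraries were above 25 RPKM, and the 3 groups overlapped. In the MS series it ran from 1.38 to 204 RPKM in MS+ (median 49.5) and from 56.0 to 154 RPKM in MS- (median 100.6), so that the spread was wider in the dissected cells. In the D series it ran from 2.36 to 343 RPKM in D+ (median 42.4) and from 5.19 to 223 RPKM in D- (median 132), and without embryo 8 up to 123 RPKM in D+ (median 42.2) and from 35.7 RPKM in D- (median 157). None of the 5 comparisons passed edgeR's threshold, with adjusted p between 0.610 and 0.980. DESeq2 called *hmp-1* higher in C-out than in C- (log2 fold change 2.70, SE 0.97, adjusted p = 0.0300), where edgeR gave 1.46 (SE 0.86, adjusted p = 0.692). On the DESeq2 scale the median gene also stood 0.69 higher in C-out.

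*hmp-2* encodes the β-catenin that joins HMR-1 to HMP-1. In C- it stood at 93.0, 102, 70.3, 103.6 and 88.4 RPKM in embryos 1, 2, 4, 5 and 6, and in C-in at 62.2, 0.28, 30.2, 4.97 and 2.44 RPKM. Every C-in library was below every C- library, yet the log2 fold change of -1.41 (SE 1.28) did not pass edgeR's test (adjusted p = 0.544). In C-out it stood at 126, 1.99, 104, 41.5 and 23.3 RPKM, which overlapped both other groups, although C-in was the lower of the 2 sister groups in 5 of 5 embryos (log2 fold change -1.29, SE 1.28, adjusted p = 0.552 by edgeR). In MS+ *hmp-2* ran from 0 to 60.7 RPKM (median 5.08) and in MS- from 2.28 to 139 RPKM (median 48.2), lower in MS+ in 6 of 7 embryos. It missed the level filter there, and an exact permutation test (two-sided, n = 7 and 7) of log2(RPKM + 25) gave a difference of -0.91 (p = 0.0478). That p stayed under 0.05 with embryos kept as pairs (exact sign-flip, p = 0.0313) but was between 0.0779 and 0.143 when embryo 1, 3, 4, 5 or 6 was left out. In D+ it ran from 1.93 to 233 RPKM (median 86.9) and in D- from 7.98 to 157 RPKM (median 79.7), and the groups overlapped (log2 fold change 0.77, SE 1.03, adjusted p = 0.859 by edgeR, and 0.89, SE 1.09, adjusted p = 0.854 without embryo 8).

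The remaining adhesion genes were low in most libraries. *jac-1*, the p120-catenin that binds the cadherin tail, was above 25 RPKM in 10 of 43 libraries and at a count of 0 in 3. Its highest value, 90.1 RPKM, was in MS+ replicate 7, followed by 75.2 RPKM in MS+ replicate 5, while the other MS+ libraries ran from 0.21 to 24.6 RPKM. The medians were 18.6 RPKM in MS-, 0.66 RPKM in D+, 1.93 RPKM in D-, 0.45 RPKM in C-in, 9.67 RPKM in C-out and 6.85 RPKM in C-. It passed the level filter in none of the 5 comparisons, and exact permutation tests (n = 5 to 7 per group) gave p between 0.500 and 0.944 (0.791 in the D series, and 0.766 without embryo 8). The groups of each comparison overlapped.

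*afd-1*, the afadin that links junctions to actin, was above 25 RPKM in 17 libraries. It stood at 14.6, 79.3, 7.10, 81.8 and 0.86 RPKM in C-in embryos 1, 2, 4, 5 and 6, at 16.4, 5.57, 13.1, 5.50 and 27.5 RPKM in C-out and at 26.2, 63.3, 36.9, 48.8 and 7.56 RPKM in C-. C-in held both the highest and the lowest of these 15 values. By edgeR the log2 fold change was 1.49 (SE 1.20, adjusted p = 0.450) between C-in and C-out and 0.77 (SE 1.18, adjusted p = 0.733) between C-in and C-. The median was 12.7 RPKM in MS+, 10.0 RPKM in MS-, 13.0 RPKM in D+ and 29.8 RPKM in D-. The difference between D+ and D- did not pass edgeR's test either (log2 fold change 0.24, SE 1.04, adjusted p = 0.965, and -0.056, SE 1.02, adjusted p = 0.989 without embryo 8), and between MS+ and MS- an exact permutation test (n = 7 and 7) gave p = 0.472.

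*sax-7*, the L1CAM-type adhesion gene, was above 25 RPKM in only 4 of the 43 libraries, 1 of them C-out replicate 2 at 505 RPKM. In C-out it stood at 37.7, 505, 20.4, 9.75 and 0.19 RPKM in embryos 1, 2, 4, 5 and 6, in C-in at 4.56, 0.37, 2.37, 0 and 0 RPKM, and in C- at 11.9, 13.9, 13.4, 14.8 and 0.14 RPKM. C-in was the lowest of the 3 groups in 5 of 5 embryos, and its range overlapped the others only through embryo 6, in which all 3 libraries had 1 count or none. The difference in mean log2(RPKM + 25) was -1.34 between C-in and C-out and -0.42 between C-in and C-, each with p = 0.0317 by a two-sided exact permutation test (n = 5 and 5). With the embryos kept as pairs an exact sign-flip test gave p = 0.0625 for both, the smallest that 5 pairs allow. With 1 embryo left out both p stayed under 0.05 without embryo 6 alone (p = 0.0286, exact permutation) and were between 0.0857 and 0.114 otherwise. In edgeR with no level filter, the log2 fold change of C-in over C-out was -7.05 (SE 1.44, adjusted p = 0.000302 over 15275 genes). MS+ replicate 1 (128 RPKM) and D+ replicate 2 (92.3 RPKM) held nearly all of the signal of their groups, whose other libraries were at or below 0.63 and 2.06 RPKM. In MS- it ran from 0.65 to 24.9 RPKM (median 8.11) and in D- from 1.31 to 20.4 RPKM (median 5.53), and the marked cells were lower in 6 of 7 embryos of either series. The difference in mean log2(RPKM + 25) was -0.12 (p = 0.876) in the MS series and -0.50 (p = 0.00216) without embryo 1, by exact permutation tests. In the D series it was -0.048 (p = 0.917), -0.046 (p = 0.933) without embryo 8 and -0.30 (p = 0.0130) without embryo 2, by exact permutation tests. Exons of *nsy-7* lie against those of *sax-7* on the opposite strand, and whether counting used the strand is not given. Of the 4 libraries with *sax-7* above 25 RPKM, *nsy-7* had 1 count beside 2374 of *sax-7* in C-out replicate 2, 3 beside 700 in D+ replicate 2, 32 beside 342 in C-out replicate 1 and 178 beside 896 in MS+ replicate 1. In C-out replicate 4 it had 422 counts beside 138, and in C-in replicates 5 and 6 it had 86 and 199 counts where *sax-7* had none. The part of *nsy-7* reads in the counts of *sax-7* was not tested.

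Of the 4 genes of the apical junction, 3 were called between the 2 groups of C descendants. *ajm-1*, *dlg-1* and *let-413* were lower in the internalizing Cxp cells than in their Cxa sisters, with log2 fold changes of -6.18, -2.82 and -4.50, although for *ajm-1* and *let-413* the groups overlapped and each of the calls was lost without some single embryo. Of the 4592 genes tested between C-in and C-out, edgeR called 13.4%, and 10.3% were lower in C-in. Of the 7 members tested, 3 were called and all 3 were lower in C-in, and the median log2 fold change of the 7 was -1.29 against 0.23 for all genes tested. *ajm-1* and *let-413* exceeded 25 RPKM in 0 C-in libraries, so both passed the level filter through C-out and C- alone. The members were also chosen with earlier results of these data known. Their share beside that of all genes is therefore a description and no test. With the embryo as a block, all genes called fell from 615 to 257, and the 3 members were called still.

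**Figure D2:**
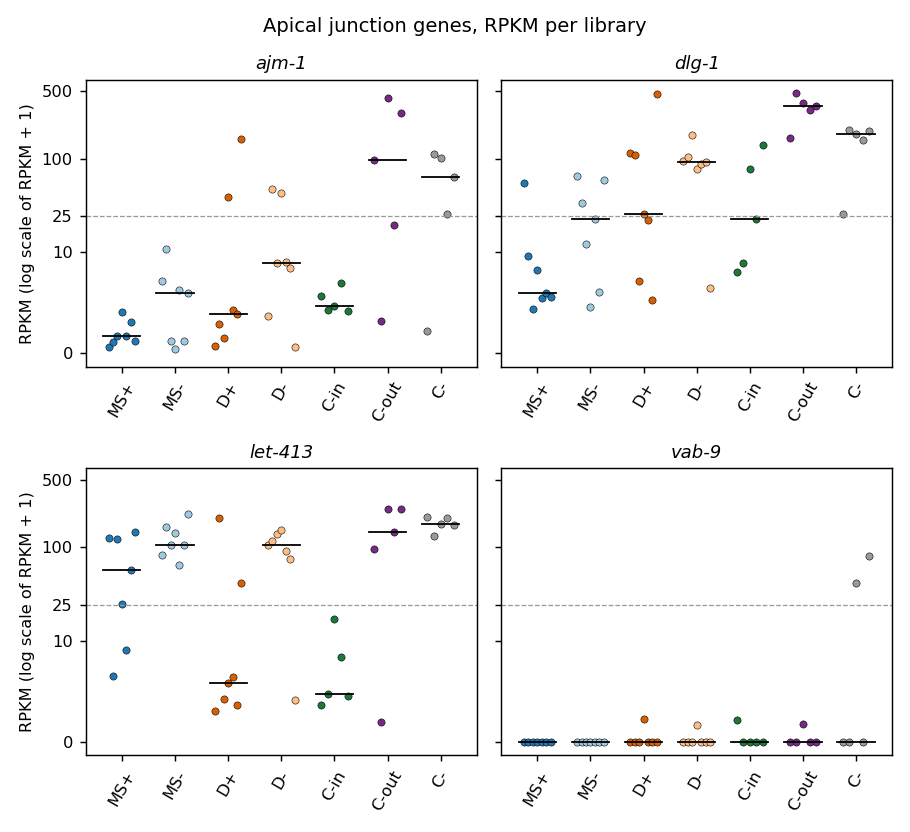
RPKM of 4 apical junction genes, on an axis that is logarithmic in RPKM + 1. Each point is 1 library (n = 7 in the MS and D groups, n = 5 in the C groups), the black bar is the group median and the dashed line marks 25 RPKM. The 5 C-in points of *ajm-1* and *let-413* all lie below 25 RPKM, the 5 C-out points of *dlg-1* lie between 164 and 479 RPKM, and *vab-9* is at 0 in 37 of 43 libraries.

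*dlg-1* encodes the scaffold with which AJM-1 assembles. In C-out it stood at 164, 479, 373, 315 and 353 RPKM in embryos 1, 2, 4, 5 and 6, in C-in at 5.88, 7.47, 77.4, 23.4 and 139 RPKM, and in C- at 26.0, 197, 179, 157 and 193 RPKM. The lowest C-out library was above the highest C-in library, as was the case in the same direction for 3.72% of the genes tested. C-out exceeded C-, and C- exceeded C-in, in 5 of 5 embryos. Between C-in and C-out the log2 fold change was -2.82 (SE 0.88, adjusted p = 0.0332 by edgeR, 0.0129 with the embryo as a block). The adjusted p by edgeR rose to 0.160, 0.0793 and 0.0844 without embryo 2, 4 or 5. Between C-out and C- edgeR gave 1.99 (SE 0.85, unadjusted p = 0.0270, adjusted p = 0.629), and DESeq2 called the gene (3.14, SE 0.96, adjusted p = 0.0123). The median gene stood 0.69 higher in C-out on that DESeq2 scale. Between C-in and C- edgeR gave -0.83 (SE 0.83, adjusted p = 0.585), and without embryo 2 that value was 0.03.

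*ajm-1* encodes the coiled-coil partner of DLG-1. In C-in it stood at 2.90, 1.79, 2.06, 4.28 and 1.71 RPKM in embryos 1, 2, 4, 5 and 6, in C-out at 97.1, 1.16, 428, 19.8 and 299 RPKM, and in C- at 0.70, 112, 102.6, 26.0 and 64.2 RPKM. C-in held between 7 and 16 counts in every library, while C-out ran from 5 to 2661 counts, and embryo 2 was the only embryo in which C-out was the lower. The log2 fold change of -6.18 (SE 1.44) between C-in and C-out had an adjusted p of 0.00703 by edgeR, and of 0.0345 with the embryo as a block. It rose to 0.0641 and 0.0520 by edgeR without embryo 4 or 6. Between C-in and C- the log2 fold change was -3.92 (SE 1.30, adjusted p = 0.0633 by edgeR, 0.0341 by DESeq2), lower in 4 of 5 embryos. Between C-out and C- it was 2.26 (SE 1.20, adjusted p = 0.677 by edgeR).

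*let-413* encodes the Scribble-type protein of the basolateral domain. In C- it stood at 204, 132, 176, 199.7 and 170.1 RPKM in embryos 1, 2, 4, 5 and 6, in C-out at 96.7, 0.63, 252, 144 and 248 RPKM, and in C-in at 1.41, 2.16, 17.5, 6.55 and 1.99 RPKM. Every C-in library was below every C- library, and below 4 of the 5 C-out libraries. Embryo 2 was again the exception, with 2 counts in C-out and 8 in C-in. The log2 fold change between C-in and C-out was -4.50 (SE 1.24, adjusted p = 0.0183 by edgeR, 0.0442 with the embryo as a block). It rose to 0.0578 and 0.0815 by edgeR without embryo 5 or 6.

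**Figure D3:**
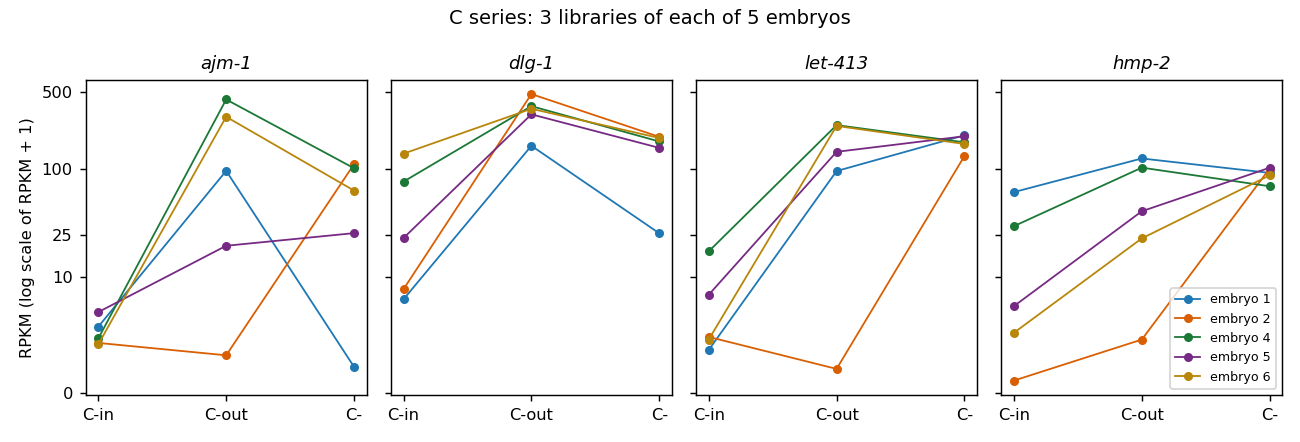
RPKM of *ajm-1*, *dlg-1*, *let-413* and *hmp-2* in the 3 libraries of each of 5 embryos of the C series, on an axis that is logarithmic in RPKM + 1. Each line joins C-in, C-out and C- of 1 embryo. For *dlg-1* all 5 lines rise from C-in to C-out, for *ajm-1* and *let-413* 4 of 5 rise, and the embryo that does not is embryo 2.

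Cxa descendants are known to form mostly epidermis and Cxp descendants body wall muscle, and the markers of these tissues are given beside the 3 genes. The 5 epidermal markers summed to between 520 and 1666 RPKM in C-out, with all 5 above 25 RPKM on average. Single C-out libraries had 3 or 4 of the 5 above 25 RPKM. There *nhr-171* had no count in replicates 1, 4 and 6, and *elt-1* stood at 24.9, 14.8 and 3.41 RPKM in replicates 4, 5 and 6. In C-in 2 of the 5 were above 25 RPKM on average, and the sum was between 9.33 and 39.4 RPKM in 4 libraries and 956 RPKM in replicate 4, nearly all from *lin-26* and *nhr-25*, with *elt-1* and *nhr-171* at 0. C-in replicate 4 had 77.4 RPKM of *dlg-1* and the highest *let-413* of its group, but 2.06 RPKM of *ajm-1*. C-in replicate 6 had more *dlg-1* (139 RPKM) with an epidermal sum of 26.0 RPKM. C-out replicate 2, low in *ajm-1* and *let-413*, had an epidermal sum of 978 RPKM, 792 of it from *elt-3*, with *lin-26* at 4.62 RPKM. Markers of other cells also stood apart in C-out replicate 1, which held 702 RPKM over gut, 696 over neuronal, 407 over MS, 443 over muscle and 100.5 over germ line genes. C-out replicate 6 held 287 RPKM over MS genes, 284 of it from *tbx-2*, and 204 over gut genes, 181 of it from *end-3*. C-out replicate 5 held 184 RPKM over neuronal genes, 169 of it from *hlh-3*. These 3 sums thus rest mainly on 1 gene each. None of the gut, neuronal, MS and germ line sums passed 68.9 RPKM in C-in. Without embryo 1 the log2 fold changes of *ajm-1*, *dlg-1* and *let-413* were -6.45, -2.77 and -4.51 (adjusted p = 0.0129, 0.0302 and 0.0383 by edgeR). Without embryo 6 *dlg-1* alone was called (-3.58, adjusted p = 0.0440). The part of cell identity in the levels of the junction genes was not tested.

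Against the rest of the embryo, the log2 fold change of *let-413* in C-in was -4.08 (SE 1.22, adjusted p = 0.0533 by edgeR, 0.0101 by DESeq2). Between C-in and C- edgeR called 3.59% of 4592 genes and 0 of the 7 members, of which *let-413* and *ajm-1* had an unadjusted p under 0.05. Without any 1 embryo the number of genes called in this comparison was between 0 and 22 in place of 165. The ranges of C-in and C- were apart, with C-in lower, for *hmp-2* and *let-413*, which is 2 of 7 members against 10.9% of all genes tested. Of these, *let-413* passed the level filter through C-out and C- alone. Between C-out and C- edgeR called 0 of 4592 genes (0%), with 344 at an unadjusted p under 0.05, and DESeq2 called 465 genes, among them *dlg-1* and *hmp-1*. Of these 465 genes, 462 were higher in C-out and 3 lower, on a scale on which the median gene stood 0.69 higher in C-out. The comparisons of C-in and of C-out with C- share the 5 C- libraries.

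In the MS series *ajm-1* was low on both sides, while *dlg-1* was above 25 RPKM in 1 of 7 MS+ and 3 of 7 MS- libraries. *ajm-1* ran from 0.16 to 1.66 RPKM in MS+ (median 0.51) and from 0.12 to 10.8 RPKM in MS- (median 3.15). *dlg-1* ran from 1.85 to 55.3 RPKM in MS+ (median 3.21) and from 2.03 to 65.7 RPKM in MS- (median 23.5), lower in MS+ in 6 of 7 embryos. Neither passed the level filter, and exact permutation tests (n = 7 and 7) gave p = 0.0641 and p = 0.144. *let-413* ran from 3.74 to 145 RPKM in MS+ (median 57.3) and from 64.7 to 222 RPKM in MS- (median 106), with the groups overlapping. Its log2 fold change was -0.43 (SE 0.78, adjusted p = 0.922 by edgeR). Between MS+ and MS- edgeR called 0.349% of 3730 genes and 0 of the 3 members tested, and DESeq2 called 0 of the 3 as well. None of the 3 had an unadjusted p under 0.05 by edgeR. The epidermal markers summed to between 2.29 and 79.2 RPKM in MS+ and to between 207 and 682 RPKM in MS-.

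In the D series *let-413* was lower in D+ than in D- in 5 of 7 embryos, and *ajm-1* and *sax-7* in 6 of 7 each. D+ libraries held 1766 to 3446 genes above 25 RPKM and D- libraries 2272 to 5131, and the part of this in such tallies was not tested. *let-413* stood at 1.08, 1.80, 3.02, 3.66 and 1.40 RPKM in D+ replicates 1, 3, 4, 6 and 7, at 200.4 RPKM in replicate 2 and at 42.9 RPKM in replicate 8. In D- it stood at 75.5 to 153 RPKM in 6 libraries and at 1.73 RPKM in replicate 8. D+ was thus far lower in 5 embryos and higher in embryos 2 and 8, the latter the one whose D+ library went against its label. The log2 fold change of -1.10 (SE 1.16, adjusted p = 0.838 by edgeR) became -1.57 (SE 1.21, adjusted p = 0.738) without embryo 8 and -2.59 (SE 1.27, adjusted p = 0.686) without embryo 2. With the embryo as a block it was -3.83 (SE 1.74, adjusted p = 0.343). D+ replicate 2 held 231 RPKM over the MS markers, 229 of it from *tbx-2*, where the other D+ libraries held 4.22 to 22.9 RPKM, and its part in the level of *let-413* was not tested.

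*dlg-1* in D+ had a lowest, median and highest value of 2.58, 26.4 and 460 RPKM, and in D- of 3.72, 91.3 and 174 RPKM. *ajm-1* in D+ was between 0.20 and 1.80 RPKM in 5 libraries, 39.8 RPKM in replicate 4 and 158 RPKM in replicate 8, and in D- it ran from 0.16 to 48.2 RPKM (median 7.50). An exact permutation test of *ajm-1* gave p = 0.988, and p = 0.188 without embryo 8. D+ replicate 4 held 161 RPKM of *elt-1* and 95.3 RPKM of *lin-26*, and 1021 RPKM over the germ line genes *pgl-1*, *nos-2*, *glh-1* and *xnd-1*, of which the other D+ libraries held at most 3.71 RPKM. The highest D+ values of *dlg-1*, *ajm-1* and *hmp-1* were all in replicate 8, beside the epidermal sum of 1434 RPKM. The edgeR log2 fold change of *dlg-1* was 0.94 (SE 0.96, adjusted p = 0.838) with that embryo and -0.82 (SE 0.90, adjusted p = 0.827) without it. For *hmp-1* it was 0.26 (SE 0.91, adjusted p = 0.953) with the embryo and -1.12 (SE 0.84, adjusted p = 0.733) without it. Between D+ and D- edgeR called 0.197% of 3039 genes and 0 of the 6 members tested, none of which had an unadjusted p under 0.05. Leaving out embryo 8 raised the genes called from 6 to 103 and left the members called at 0.

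**Figure D4:**
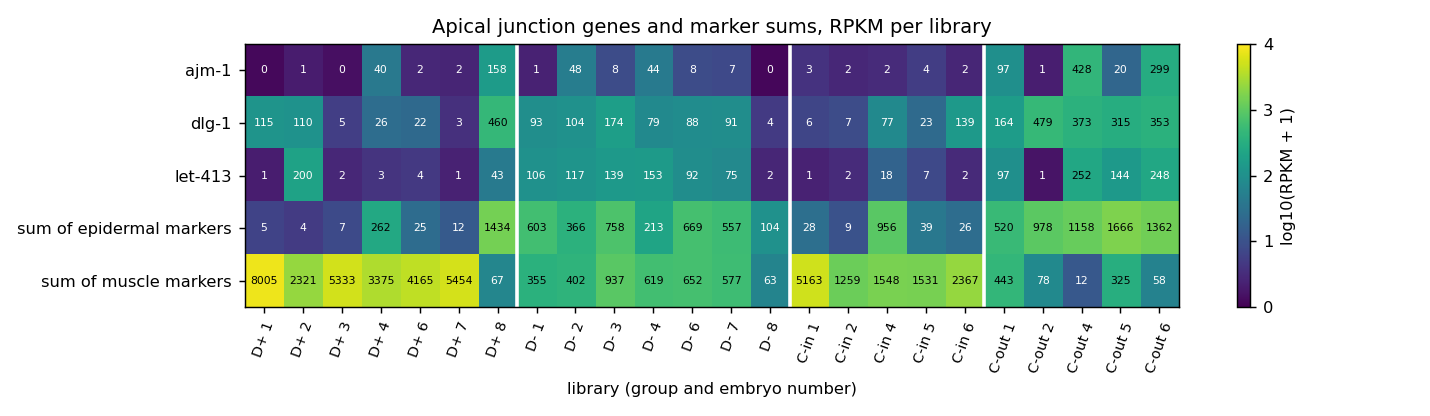
RPKM of *ajm-1*, *dlg-1* and *let-413* and the summed RPKM of 5 epidermal and 4 muscle markers, 1 column per library of D+, D-, C-in and C-out, with the color giving log10(RPKM + 1) and the number the RPKM. D+ replicate 8 combines an epidermal sum of 1434 RPKM with a muscle sum of 66.6 RPKM, unlike the other 6 D+ libraries.

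*vab-9*, the claudin-like gene, had no count in 37 of 43 libraries. It stood at 41.9 RPKM in C- replicate 4 (120 counts) and at 81.1 RPKM in C- replicate 6 (159 counts), and 4 other libraries had 1 count each. The other 3 C- libraries had none, and exact permutation tests of C- against C-in and C-out (n = 5 and 5) each gave p = 0.444.

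**Figure D5:**
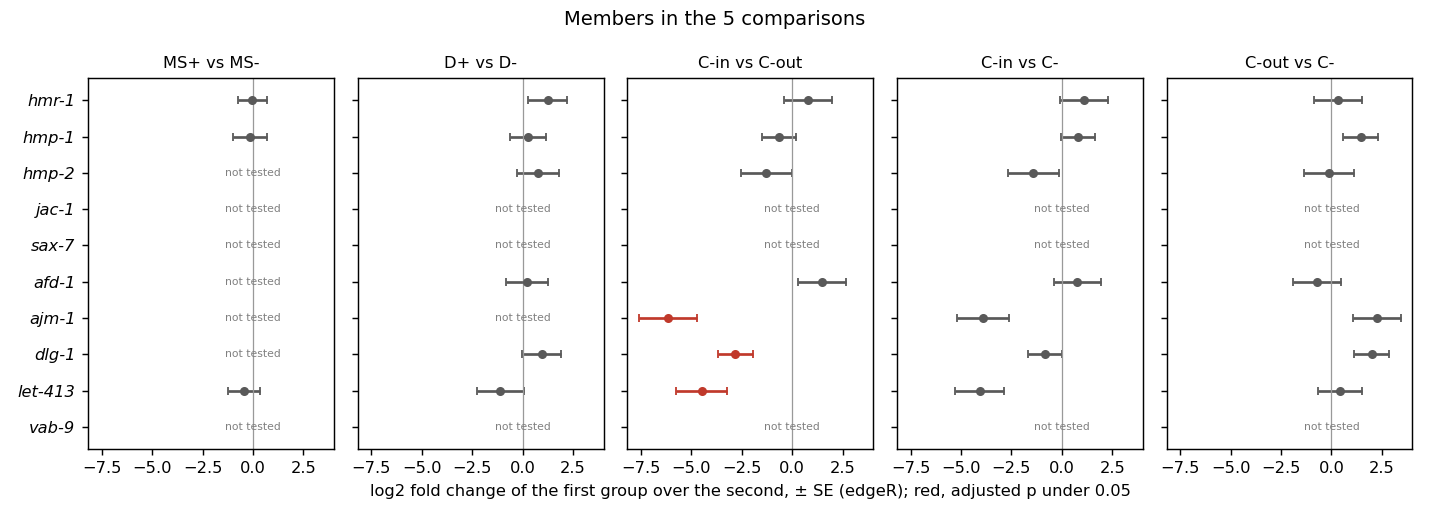
Log2 fold change of the first group over the second with its SE, from edgeR, for the 10 genes in the 5 comparisons. Red points have an adjusted p under 0.05, and genes below the level filter are marked as not tested. The 3 red points are *ajm-1*, *dlg-1* and *let-413* between C-in and C-out.

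A joint edgeR test asked whether a gene differed in any of MS+ against MS-, D+ against D-, C-in against C- and C-out against C-. It called 22% of 6840 genes and 1 of the 8 members tested, *ajm-1* (adjusted p = 0.0327). With the embryo as a block the adjusted p of *ajm-1* by edgeR was 0.188, while that of *let-413* moved from 0.0651 to 0.0347. Without D embryo 8 it was 0.0398 for *let-413* and 0.0202 for *ajm-1* by edgeR. For *dlg-1* it was 0.117, and 0.0191 after median-ratio scaling. The other 5 had adjusted p between 0.523 and 0.851 by edgeR.

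Ordered by mean RPKM over the 7 groups, C-out was the highest group for *hmp-1*, *sax-7*, *ajm-1* and *dlg-1*, C- for *hmp-2*, *let-413* and *vab-9*, C-in for *hmr-1* and *afd-1*, and MS+ for *jac-1*. MS+ was the lowest group for *hmp-1*, *hmp-2*, *afd-1*, *ajm-1* and *dlg-1*, and C-in for *sax-7* and *let-413*. Strains differ between series, so this order is a description. Of the 60 pairs of neighboring groups, 2 differed by more than the larger SD of the pair. These were C-out over C- for *dlg-1* (337 ± 114 against 150.3 ± 71.3 RPKM, SD, n = 5 each) and C-in over MS+ for *ajm-1* (2.55 ± 1.08 RPKM, SD, n = 5, against 0.66 ± 0.53 RPKM, SD, n = 7). The highest group stayed the same with the median in place of the mean for 6 of the 10 genes. With TMM-scaled values it stayed for 8, and turned to D+ for *hmp-2* and to C-out for *let-413*.

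Genes related to the members were looked at for comparison. Of 20 partners at the cortex and junction, 19 were found, and between C-in and C-out 10 of them were tested. Of these 10, edgeR called 1 higher and 1 lower in C-in, beside 13.4% of all genes tested. The list was chosen with earlier results of these data known, so this share is a description and no test. *sma-1*, the heavy β-spectrin of the apical cortex, was lower in C-in (log2 fold change -4.21, SE 0.90, adjusted p = 0.00376 by edgeR), at 21.4, 1.41, 1.90, 2.31 and 7.42 RPKM against 29.4, 155, 129, 162 and 126 RPKM in C-out. C-in was the lower in 5 of 5 embryos, and the call held with each embryo left out. *zoo-1*, the ZO-1 homolog, was higher in C-in (3.72, SE 1.23, adjusted p = 0.0433 by edgeR), at 75.9, 37.6, 131, 76.2 and 62.9 RPKM against 22.6, 6.65, 1.59, 5.71 and 0.95 RPKM. Its adjusted p by edgeR was 0.0965 with the embryo as a block and 0.168, 0.106 and 0.125 without embryo 4, 5 or 6. *sma-1* exceeded 25 RPKM in no C-in library, so it passed the level filter through C-out and C- alone. *zoo-1* exceeded it in no C-out library and passed through C-in and C- alone. No partner was called in the other 4 comparisons by edgeR. The highest mean levels over the 43 libraries were those of *srgp-1* (130.4 RPKM), *erm-1*/ezrin (115 RPKM) and the Crumbs-like *eat-20* (69.2 RPKM).

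Of 12 other cadherins, 11 were found and only *cdh-4*, of the Fat type, reached the level filter (mean 103 RPKM), with 0 calls in the 5 comparisons. The next in level were *casy-1* (5.37 RPKM) and *fmi-1* (3.02 RPKM). None of 5 claudin-like genes was tested, the highest being *clc-3* (1.82 RPKM), *clc-4* (0.89 RPKM) and *clc-2* (0.67 RPKM). Of the 3 β-catenins other than *hmp-2*, *sys-1* (mean 115 RPKM) was tested in all 5 comparisons and *wrm-1* (65.2 RPKM) in those of the MS and C series, with 0 calls, and *bar-1* had a mean of 0.47 RPKM. Between C-in and C-out *sys-1* had a log2 fold change of 2.82 (SE 1.22, adjusted p = 0.129 by edgeR) and *wrm-1* of -2.95 (SE 1.24, adjusted p = 0.116).

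Likeness of pattern was measured for the 5 members with a median above 25 RPKM, by Pearson's r on log2(RPKM + 25) over 43 libraries among 6840 genes, as a description of libraries that share embryos and differ in depth. *dlg-1* was closest to *R03H10.2* (r = 0.83) and *C14F11.6* (0.83), and *let-413* to *Y37A1B.5* (0.76) and *pmk-1* (0.75). The values were lower for the core complex, with *dao-3* (0.63) and *Y71G12B.6* (0.61) for *hmp-1*, *F01F1.11* (0.63) and *C37C3.9* (0.63) for *hmp-2*, and *F16A11.1* (0.60) and *F23C8.9* (0.58) for *hmr-1*. No member was among the 2 nearest genes of another member.

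In the WBcel235 annotation all 10 are protein-coding. *hmr-1* (WBGene00001980) lies on chromosome I at 11075755 to 11134667, *hmp-2* (WBGene00001979) on I at 14738882 to 14742671, and *afd-1* (WBGene00021009) on I at 2160038 to 2209644. *vab-9* (WBGene00006875) lies on II at 8636233 to 8637715. *jac-1* (WBGene00002175) lies on IV at 15997835 to 16026847 and *sax-7* (WBGene00004732) on IV at 8062659 to 8084087. *hmp-1* (WBGene00001978) lies on V at 11845871 to 11852166 and *let-413* (WBGene00002632) on V at 7973078 to 7977776. *ajm-1* (WBGene00000100) lies on X at 9082946 to 9113619 and *dlg-1* (WBGene00001006) on X at 5479700 to 5484941. RPKM rests on 1 length per gene, which for *hmr-1* was 3522 bases while its longest annotated transcript has 9485, so levels compared between genes depend on the transcript chosen.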

How the data were processed

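RNA-seq tables of 43 accepted libraries were used, and 8 libraries of 3 embryos that the labels mark as rejected entered no comparison. The study dropped all libraries of an embryo when any of them held too many spike-in reads. The authors deposited a count of reads per gene for each library, in whole numbers and not normalized. Beside it stands an RPKM value that the authors derived from the count, 1 length per gene and a library total. cDNA was made with the SMARTer Ultra Low kit and libraries with Nextera XT. The submitters' processing notes name the ce10 build and bedtools, while no aligner, counter or strand rule was given in the sources used here. Deposited coverage tracks were not used here.

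Groups and replicates were taken from the labels. Counts were compared within each series by edgeR's quasi-likelihood test with TMM scaling and Benjamini-Hochberg adjustment over all genes tested (threshold 0.05), among genes that exceeded 25 RPKM in a number of libraries equal to or above the size of the smaller group. Members below this level were compared on log2(RPKM + 25) by a two-sided exact permutation test. Each of these 17 tests stands alone, with no adjustment, and 3 gave p under 0.05. Alternatives were median-ratio scaling, DESeq2, no filter, the embryo as a replicate block, a pseudocount of 1, each embryo left out in turn and, added after seeing the data, DESeq2 without D embryo 8. Libraries of 1 number are paired through their embryo by the design, and the mean correlation of their deviations from group means was 0.0332 in MS, 0.0243 in D and 0.0195 (C-in and C-out), 0.0462 (C-in and C-) and 0.0216 (C-out and C-) in C. Scripts were tested on simulated data.

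The members and gene lists were chosen with earlier results of these data known. Named genes were the members, list genes past the threshold (at most 4 per list and comparison), the 3 highest of each list, and the 2 nearest in pattern. Gene positions come from the WBcel235 annotation. Software was R 4.3.3, edgeR 4.0.16, DESeq2 1.42.0, Python 3.11.15 with matplotlib 3.10.9, scipy 1.17.1, pandas 2.3.3 and numpy 2.4.6.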

Additional observations from a re-analysis of the deposited data

Results flagged for a closer look

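Of 68 combinations of a member and a group, 7 held a library that lay apart from the rest of its group by Dixon's criterion, and chance marks about 1 in 20 groups. These were *hmr-1* in C-in replicate 1 (526.78 RPKM), *sax-7* in MS+ replicate 1 (128.04 RPKM) and in D+ replicate 2 (92.3 RPKM), and *dlg-1* in MS+ replicate 1 (55.33 RPKM), each the highest of its group. The others were the lowest of their groups: *dlg-1* in C- replicate 1 (25.96 RPKM) and in D- replicate 8 (3.72 RPKM), and *let-413* in D- replicate 8 (1.73 RPKM). D- replicate 8 also had the lowest muscle sum (63.3 RPKM) and the lowest epidermal sum (104 RPKM) of the D- libraries.

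*dlg-1* in RPKM lay on opposite sides of the rest of the same embryo in the 2 groups of C descendants. The ratio of mean RPKM was 0.337 for C-in over C-, lower in 5 of 5 embryos, and 2.24 for C-out over C-, higher in 5 of 5 embryos. The difference between these contrasts is that of C-in and C-out (log2 fold change -2.82, adjusted p = 0.0332 by edgeR). Neither contrast with C- passed edgeR's test (-0.83, adjusted p = 0.585, and 1.99, adjusted p = 0.629), and the first was -0.013 with median-ratio scaling and 0.031 without embryo 2.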

How the results depend on the processing

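Between C-in and C-out the calls of *ajm-1*, *dlg-1* and *let-413* held under median-ratio (RLE) scaling, DESeq2, no filter and the replicate block, and with 1 embryo left out between 1 and 3 members were called. Counts over all genes depended more on the setting. For MS+ vs MS- they were 13 by the reported fit, 4 with RLE scaling, 451 with DESeq2, 347 with no filter and 0 to 41 with 1 embryo left out. For D+ vs D- they were 6, with 482 (DESeq2), 930 (DESeq2 without embryo 8, added after seeing the data), 282 (no filter), 2 (block) and 0 to 103 (1 embryo left out). For C-in vs C-out they were 615, with 1296 (DESeq2), 257 (block) and 199 to 708 (1 embryo left out). For C-in vs C- they were 165, with 14 (RLE), 1469 (DESeq2), 66 (no filter), 27 (block) and 0 to 22 (1 embryo left out). For C-out vs C- they were 0, with 465 (DESeq2), 87 (no filter), 11 (block) and 0 to 7 (1 embryo left out). DESeq2 called 1 of 6 members in D+ vs D- (482 of 3039 genes) and 1 of 6 without embryo 8 (930 of 3317 genes). It called 2 of 7 in C-in vs C- (1469 of 4592 genes) and 2 of 7 in C-out vs C- (465 of 4592 genes). With no filter 1 of 10 was called in C-out vs C- (87 of 15275 genes). In the joint test, 2 of 8 members were called with RLE scaling, beside 30.7% of all genes tested. With no filter it was 2 of 10 beside 15.7%, and without D replicate 8 it was 2 of 8 beside 25.6%. DESeq2 called 4 of 8 beside 45.9%, and the block 1 of 8 beside 12%. All genes called were 1505 by the reported fit, 2098 with RLE scaling, 3927 with no filter, 823 with the block, 1741 without D replicate 8 and 3141 with DESeq2. Of the 17 permutation tests 3 had p under 0.05, against 1 with the block and 1 to 4 with 1 embryo left out. In the C series the block could not give p under 0.05, as 5 pairs allow no p below 0.0625 by the sign-flip test. With medians in place of means the highest group stayed for 6 members and the lowest for 4.

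Several log2 values changed sign with the setting. Over all genes tested the median log2 fold change stood at 0.33 (MS), 0.53 (D), 0.23 (C-in vs C-out), 0.48 (C-in vs C-) and 0.09 (C-out vs C-), and 0.92, 1.42, 0.49, 1.45 and 0.69 with RLE, and -0.96, -0.85, -0.27, -1.16 and -0.76 with the block. In MS+ vs MS- *hmr-1* turned to 0.55 (RLE), 0.55 (DESeq2) and 0.21 (no filter), *hmp-1* to 1.51 (RLE), 1.51 (DESeq2) and 0.29 (no filter), *let-413* to 0.36 (RLE) and 0.35 (DESeq2), and *jac-1* to -0.35 (pseudocount 1). In D+ vs D- *ajm-1* turned to -0.63 (pseudocount 1), and with the block *hmp-1* turned to -0.57, *hmp-2* to -0.13 and *dlg-1* to -0.84. With the block *hmr-1* turned to -0.51 (C-in vs C-out), -1.86 (C-in vs C-) and -1.35 (C-out vs C-), and *let-413* to -0.37 (C-out vs C-). *hmp-2* turned to 0.26 (C-out vs C-) with RLE and with DESeq2. None of these passed the threshold in either setting. With 1 embryo left out, the log2 values that crossed 0 ran in MS+ vs MS- from -0.14 to 0.31 (*hmr-1*), -1.19 to 1.17 (*hmp-1*), -0.10 to 0.24 (*jac-1*) and -0.50 to 0.028 (*sax-7*). In D+ vs D- they ran from -1.12 to 0.63 (*hmp-1*), -0.23 to 0.15 (*jac-1*), -0.30 to 0.068 (*sax-7*), -0.056 to 0.63 (*afd-1*), -0.42 to 0.30 (*ajm-1*) and -0.82 to 1.37 (*dlg-1*). In C-in vs C-out they ran from -2.47 to 2.53 (*hmr-1*), -1.66 to 0.45 (*hmp-1*) and -0.31 to 0.057 (*jac-1*). In C-in vs C- they ran from -2.27 to 1.94 (*hmr-1*), -0.20 to 1.66 (*hmp-1*) and -1.73 to 0.031 (*dlg-1*). In C-out vs C- they ran from -1.25 to 0.94 (*hmr-1*), -0.89 to 0.45 (*hmp-2*), -0.59 to 0.065 (*jac-1*), -1.64 to 0.00068 (*afd-1*) and -0.093 to 0.94 (*let-413*). The cause of these changes was not tested. Depth limits the C-out values of embryo 5, where 3 counts are 7.20 CPM.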

Other observations

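The 3 rejected embryos belong to no comparison, and the labels mark their libraries as rejected. In C embryos 3 and 7, *dlg-1* stood at 508 and 692 RPKM in C-out, 128.7 and 86.9 RPKM in C-in and 191 and 286 RPKM in C-. *ajm-1* stood at 245 and 588 RPKM in C-out, 28.6 and 65.3 RPKM in C-in and 112.6 and 113 RPKM in C-. *let-413* stood at 3.71 and 5.85 RPKM in C-out, 31.1 and 59.2 RPKM in C-in and 71.0 and 8.40 RPKM in C-. The counts behind the C-in values were 54 and 67 for *dlg-1*, 10 and 42 for *ajm-1* and 8 and 28 for *let-413*. *vab-9* had 62 and 21 counts in C- and none in C-in or C-out. In D embryo 5 *sax-7* stood at 125.6 RPKM in D-, where the accepted D- libraries ran from 1.31 to 20.4 RPKM.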
